A study of Caenorhabditis elegans with 2 samples.

Results

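Genes of the intracellular Wnt pathway of *Caenorhabditis elegans* were examined for binding by LSY-2, a C2H2 zinc finger transcription factor, in chromatin immunoprecipitation and sequencing (ChIP-seq) data. The set holds 9 of 19985 annotated protein-coding genes: the 3 Dishevelled genes *mig-5*, *dsh-1* and *dsh-2*, the 4 beta-catenin genes *bar-1*, *wrm-1*, *sys-1* and *hmp-2*, the TCF gene *pop-1* and the kinase gene *lit-1*. They were chosen by name for their place in the pathway, with their LSY-2 peaks already known, so their peaks are a description and no test was made of them. The samples were 2 biological replicates of whole embryos of mixed stage and both sexes, age unknown, from strain OP367, which carries unc-119(tm4063) III and the insertion wgIs367 that expresses eGFP-tagged LSY-2. Every sample carried both alleles, there was no comparison group, and the promoter that drives the transgene is not given in the sources used here. Whole embryos mix all cell types, so binding in few cells and weak binding in many cannot be told apart.

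In the Wnt pathway, a secreted ligand binds a Frizzled receptor, Dishevelled proteins carry the signal into the cell, and beta-catenin reaches the nucleus to act with a TCF transcription factor. The worm divides the work of beta-catenin among separate proteins. BAR-1 serves the canonical pathway, HMP-2 serves cell adhesion, and SYS-1 and WRM-1 serve the asymmetry pathway. In that pathway, which makes the daughters of many embryonic divisions differ, WRM-1 with the Nemo-like kinase LIT-1 promotes export of the TCF protein POP-1 from the nucleus, and SYS-1 is the coactivator of the POP-1 that stays.

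The authors deposited a list of 30000 peaks and background for each replicate, another for the pooled replicates, and a shorter list cut at their threshold for the irreproducible discovery rate (IDR). Coordinates are on genome build ce11. The IDR list holds the pooled-list peaks of highest signal value, the first peak outside it being that of rank 2569, so a peak of the IDR list has the same rank in both. The signal value is the authors' own score of a peak and is read here only within a list. It ran from 33.4 to 5501 in the IDR list, with a median of 56.7. Read depth is unknown, and no control immunoprecipitation was used here, so whether a peak is particular to LSY-2 was not tested. The tagged gene, *lsy-2*, had a promoter peak at IDR rank 42, and at ranks 41 and 44 in replicates 1 and 2.

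A gene was counted as having a promoter summit when the summit, the base of highest signal in a peak, lay from 1000 bp upstream to 300 bp downstream of the annotated 5' end of a protein-coding transcript. By this rule 4 of the 9 genes had a summit of the IDR list: *mig-5*, *sys-1*, *lit-1* and *dsh-2*. The share over all protein-coding genes was 12.6%, given for scale, since the 9 were listed with these peaks known. In addition *pop-1* had an intronic summit, and *dsh-1*, *bar-1*, *wrm-1* and *hmp-2* had no IDR summit in either place. All 5 genes without a promoter summit of the IDR list had a weaker summit of the pooled list in the promoter window. The share was 31.7% of all genes without an IDR promoter summit, not matched for window length. Several 5' ends made the windows of *dsh-1*, *wrm-1* and *hmp-2* 3948, 2090 and 2010 bp, beside 1301 bp for *bar-1* and *pop-1*. Of 36 other Wnt pathway genes without an IDR promoter summit, 24 had such a pooled-list summit too.

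**Figure D1:**
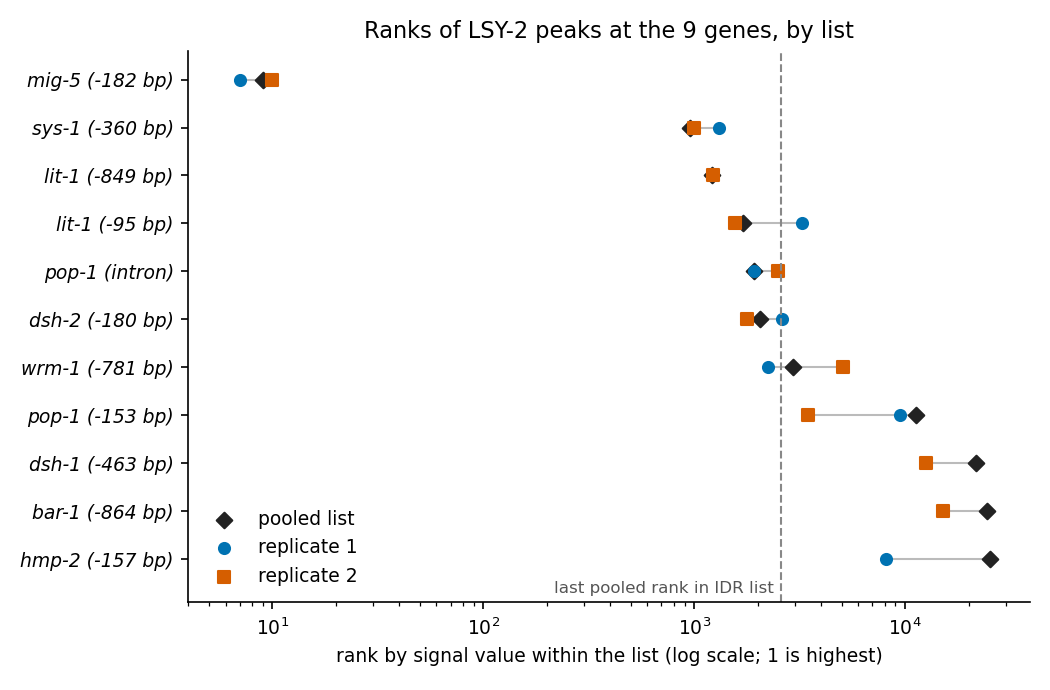
Rank of each peak by signal value in the pooled list (diamonds), replicate 1 (circles) and replicate 2 (squares), on a log axis where 1 is highest. Labels give the gene and the distance of the summit from the nearest 5' end, or the word intron for the intronic IDR peak of *pop-1*. Each gene without an IDR promoter summit has a row for its highest pooled-list peak in the promoter window. The stronger intronic peak of *dsh-1* and the IDR peak at -1206 bp from *pop-1*, both outside the windows, are therefore not shown. A single row, *mig-5*, lies within the first 10 ranks of every list, and the next, *sys-1*, lies at 958 to 1313. The dashed line marks the pooled rank where the IDR list ends, and diamonds right of it are outside the IDR list. It does not divide the replicate points. A missing point means that the replicate had no overlapping peak.

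Among the Dishevelled genes, which encode the cytoplasmic link between Frizzled and beta-catenin, *mig-5* (WBGene00003241, chromosome II, 8182323 to 8185023, minus strand) had by far the highest peak of the set. Its peak reached from 8184964 to 8185432, with a signal of 2466 and rank 9, above 99.7% of the IDR list. In replicate 1 the overlapping peak had a signal of 1272 and rank 7, and in replicate 2 a signal of 1205 and rank 10. The summits lay at -182 bp from the 5' end in the pooled list, at -186 bp in replicate 1 and at -177 bp in replicate 2. Both replicates thus placed *mig-5* among their 10 highest peaks, at positions within a few bases of each other. At 469 bp the peak was longer than the 380 bp that 68.3% of IDR peaks share.

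The *mig-5* summit also lay in the promoter window of *cct-1*, which encodes a subunit of the CCT chaperonin that folds actin and tubulin. Both genes are divergent, with 419 bp between their 5' ends, and the summit was at -238 bp from *cct-1* and at -182 bp from *mig-5*. Position alone therefore assigns the peak to neither gene. Of the 4 genes with a promoter summit, *mig-5* was the only one to share it with another protein-coding gene, while 59.6% of all genes with an IDR promoter summit share at least 1.

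**Figure D2:**
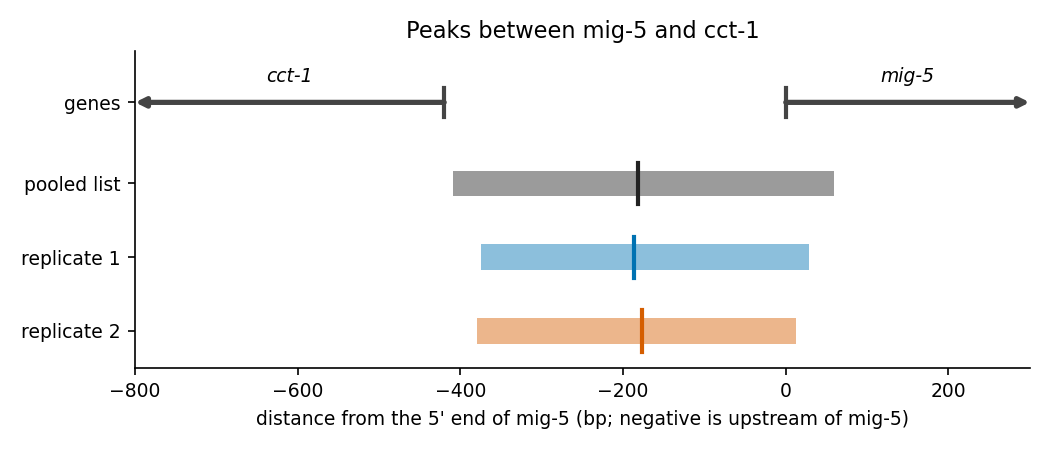
Extent of the peak between *mig-5* and *cct-1* in the pooled list and in each replicate, against distance from the *mig-5* 5' end in bp. Vertical bars mark the summits and arrows the direction of transcription. All 3 summits fall between -186 and -177 bp, inside the 419 bp between the genes.

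A second Dishevelled gene, *dsh-2* (WBGene00001102, chromosome II, 5078233 to 5081174, minus strand), had a peak near the lower end of the IDR list. It is known, with *mig-5*, for asymmetric divisions in the embryo. The peak, from 5081164 to 5081543, had a signal of 40.5 and rank 2046. Its counterpart had a signal of 18.2 and rank 2621 in replicate 1, and a signal of 23.2 and rank 1776 in replicate 2. The summits were at -180, -180 and -169 bp in the pooled list, replicate 1 and replicate 2. That is nearly the same distance as at *mig-5*, at a far lower signal. The gap to the next gene upstream, C04G6.4 on the same strand, is 315 bp, and the summit lay in no other promoter window. When as many of the highest peaks were taken from replicate 1 alone as the IDR list holds, *dsh-2* had no promoter summit.

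The sequences at these summits are shown because the pair of Dishevelled promoters differ most in rank while their summits sit at like distances. They are RefSeq sequence of assembly WBcel235, the ce11 assembly, written along the minus strand in the direction of transcription. Capitals mark the 21 bases centred on the summit. The *mig-5* sequence covers 299 bp, chrII:8185056-8185354, which is intergenic, and the *dsh-2* sequence 101 bp, chrII:5081304-5081404, also intergenic.
*mig-5*: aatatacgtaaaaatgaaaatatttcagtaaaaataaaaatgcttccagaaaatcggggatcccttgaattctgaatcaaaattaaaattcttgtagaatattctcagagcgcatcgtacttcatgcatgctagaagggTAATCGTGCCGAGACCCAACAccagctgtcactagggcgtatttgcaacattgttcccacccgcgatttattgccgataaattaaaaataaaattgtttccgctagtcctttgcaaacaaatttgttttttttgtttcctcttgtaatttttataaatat
*dsh-2*: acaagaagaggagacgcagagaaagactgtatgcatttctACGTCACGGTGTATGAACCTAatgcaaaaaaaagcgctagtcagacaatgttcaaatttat
Within 50 bp to each side of the summit, GC content was 50.5% at *mig-5* and 38.6% at *dsh-2*. Over 2550 nuclear IDR summits it was 45.9% ± 7.95 (SD across summits), and 15.2% of those windows were below the *dsh-2* value. Within the same 50 bp to each side, *mig-5* had no soft-masked (repeat or low-complexity) base, as was so in 25.8% of all IDR windows. At *dsh-2*, 53.5% of these bases were soft-masked.

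The third Dishevelled gene, *dsh-1* (WBGene00001101, chromosome II, 5214400 to 5225384, minus strand), had no IDR summit in or near it. The nearest IDR summit to a *dsh-1* 5' end was 39023 bp away, in the direction of transcription, at *crh-2*. Its 7 annotated 5' ends give it a window of 3948 bp, which held 2 summits of the pooled list. The higher of these, at -463 bp from an internal 5' end, had a signal of 8.30 and rank 21744 of 30000. Replicate 2 had an overlapping peak at rank 12577, and replicate 1 had none. The strongest peak in the gene was intronic, 550 bp past the outermost 5' end and so outside the window. It had rank 4007 in the pooled list with a signal of 23.1, rank 6862 in replicate 1 with a signal of 10.1, and rank 7325 in replicate 2 with a signal of 8.77. This weak intronic peak was in all 3 lists. Upstream of the outermost 5' end, replicate 1 had a peak of rank 9034 at -180 bp, and replicate 2 had its only one at -965 bp with rank 20251.

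Of the beta-catenin genes, *wrm-1* (WBGene00006943, chromosome III, 5722850 to 5727115, plus strand) lay just outside the IDR list. WRM-1 is the beta-catenin that works with LIT-1 on POP-1 export. Its promoter peak had a signal of 29.7 and rank 2927 in the pooled list, where the first peak outside the IDR list had rank 2569 and a signal of 33.4. In replicate 1 the overlapping peak had a signal of 20.5 and rank 2239, and in replicate 2 a signal of 10.8 and rank 5070. The summits were at -781, -783 and -747 bp from the 5' end. The replicates therefore differed in rank more than in position. Replicate 1 alone placed *wrm-1* among as many of its highest peaks as the IDR list holds. On either side of the threshold stand *dsh-2*, inside at rank 2046, and *wrm-1*, outside at rank 2927. The authors' −log10 q-value of the *wrm-1* peak, 2.49, lay within the range of the IDR list, 2.32 to 2.79.
The *wrm-1* summit window, chrIII:5722019-5722119 on the plus strand, is intergenic and is shown because it is the strongest peak of the set outside the IDR list, with the 21 bases around the summit in capitals.
*wrm-1*: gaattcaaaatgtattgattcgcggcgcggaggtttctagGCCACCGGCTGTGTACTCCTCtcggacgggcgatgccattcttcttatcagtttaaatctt
Its GC content was 48.5%, and the next gene upstream, *arf-1*, is 5263 bp away on the same strand.

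The kinase gene *lit-1* (WBGene00003048, chromosome III, 13701991 to 13724404, plus strand) had 2 IDR summits, both inside the gene. LIT-1 is the Nemo-like kinase that phosphorylates POP-1 together with WRM-1. The first peak, from 13713006 to 13713385, had a signal of 58.8 and rank 1214, with a signal of 31.2 and rank 1209 in replicate 1, and a signal of 30.3 and rank 1222 in replicate 2. The 5' end of transcript W06F12.1a.1 followed, with the summit at -849 bp and in an intron of 12325 bp of the longer transcripts. The ranks in the 3 lists were the closest of any IDR peak of the set after *mig-5*. A second peak, from 13717680 to 13718059, had a signal of 46.4 and rank 1703, at -95 bp from the 5' end of W06F12.1b.1 and in an intron of 2502 bp. For this peak the replicates were further apart. Replicate 1 gave a signal of 15.7 and rank 3245, and replicate 2 a signal of 25.5 and rank 1555, with summits +7 and -86 bp from the pooled summit.

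At the outermost 5' end of *lit-1* there was no IDR summit. Of the 2 pooled-list peaks upstream of it, the higher, at -666 bp, had a signal of 14.04 and rank 8865. Both promoter summits thus count only through internal 5' ends, at 12054 and 15974 bp from the outermost. With the outermost 5' end alone, *lit-1* had no promoter summit, and 3 of the 9 genes had one. Genes with 2 or more IDR promoter summits made up 0.46% of all, a share not matched for window length, and *lit-1* was the 1 such gene of the 9. Its 7 annotated 5' ends give a promoter window of 5484 bp in all, and of the 134 genes with a window at least as long, 16.4% had an IDR promoter summit.

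The *lit-1* windows are shown because they lie at internal 5' ends and differ in composition. They are on the plus strand at chrIII:13713146-13713246 and chrIII:13717820-13717920, both intronic, and capitals mark the 21 bases centred on the summit.
*lit-1*, rank 1214: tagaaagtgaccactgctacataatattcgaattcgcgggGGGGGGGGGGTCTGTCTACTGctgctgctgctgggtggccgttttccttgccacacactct
*lit-1*, rank 1703: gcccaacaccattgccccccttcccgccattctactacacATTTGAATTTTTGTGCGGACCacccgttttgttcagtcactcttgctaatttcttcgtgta
The window of rank 1214 holds a run of 13 G bases that ends at the base before the summit, a run of G or C that 5 of the 2550 IDR windows (0.196%) match on either strand. GC content was 55.4% there, above 88.2% of IDR windows, and 47.5% in the window of rank 1703. Of the bases, 41.6% and 21.8% were soft-masked. The part that the run of G plays in the peak was not tested.

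The TCF gene *pop-1* (WBGene00004077, chromosome I, 2822243 to 2830311, minus strand) encodes the transcription factor at the end of the pathway. It had an IDR summit inside the gene and none in its promoter window. The peak, from 2825653 to 2826032, had a signal of 42.4 and rank 1924. Replicate 1 had a signal of 23.1 and rank 1924 there, and replicate 2 a signal of 17.9 and rank 2492. Summits in the replicates were within 2 bp of the pooled summit, 4468 bp past the 5' end, in intron 2 of 3. This peak was thus at the same place in both replicates, and each ranked it high enough for a list as long as the IDR list. Over all genes 2.79% had an IDR summit inside, and among the 1491 genes at least as long as *pop-1* the share was higher, at 11.7%. The part that gene length plays was not tested. For *lit-1*, the other of the 2 genes of the set with an internal summit, the share among genes at least as long was 17.1%.

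In the *pop-1* promoter window the pooled list had a peak at -153 bp with a signal of 12.3 and rank 11309. The overlapping peak of replicate 2, at -178 bp, had a signal of 14.05 and rank 3474, and that of replicate 1, at +26 bp, had a signal of 8.53 and rank 9509. This weak peak differed between replicates in place as well as rank. A further IDR summit, of rank 1593, lay at -1206 bp, just beyond the window, amid the noncoding RNA genes W10C8.8 and W10C8.12. Its signal, 48.99, was above that of the intronic peak. Another, of rank 2354, lay past the 3' end, inside W03D8.3, the next gene on the same strand.

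Most pooled-list summits inside *lit-1* and *pop-1* were below the IDR list. Counting the 2 IDR summits, there were 22 inside *lit-1* over 22.4 kb, or 0.98 per kb, with 23 in replicate 1 and 20 in replicate 2. Counting its 1 IDR summit, there were 8 inside *pop-1* over 8.07 kb, or 0.99 per kb, with 8 in replicate 1 and 9 in replicate 2. Most of the pooled-list summits, IDR summits included, were intronic, 20 of 22 and 6 of 8. The other 7 genes had from 0 (*mig-5*, *bar-1* and *wrm-1*) to 0.46 per kb (*dsh-1*). Among 4752 genes at least as long as *hmp-2*, the median was 0.24 per kb, 3.49% were at or above *lit-1* and 3.35% at or above *pop-1*. Per the deposited metadata the pooled list includes background, so the summits below the IDR list are not read as binding sites.

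**Figure D3:**
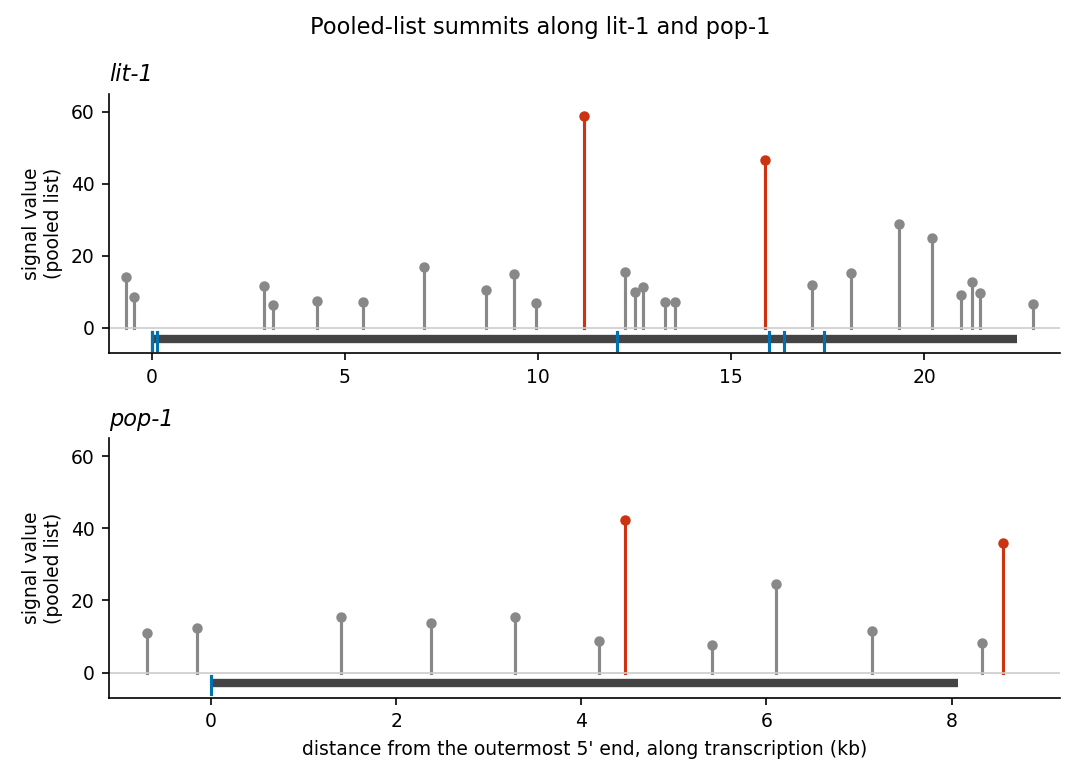
Signal value of each pooled-list summit along *lit-1* (top) and *pop-1* (bottom), against distance from the outermost 5' end in kb. Red stems are in the IDR list, grey stems are below it, the dark bar is the gene and blue ticks are annotated 5' ends. In *lit-1* the red stems, of signal 58.8 and 46.4, stand before internal 5' ends. In *pop-1* the stem of 42.4 is inside the gene and that of 36.0 is past its 3' end. The stronger IDR peak at -1206 bp from *pop-1*, of signal 48.99, lies beyond the plotted range.

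The coactivator beta-catenin gene *sys-1* (WBGene00006379, chromosome I, 9980063 to 9984794, minus strand) had the second highest promoter peak of the set. The peak, from 9984964 to 9985343, had a signal of 69.1 and rank 958, with a signal of 29.7 and rank 1313 in replicate 1, and a signal of 34.2 and rank 1002 in replicate 2. The summits were at -360, -363 and -385 bp. Both replicates ranked it well within the length of the IDR list, and it lay in no other promoter window. The window within 50 bp of the summit had a GC content of 44.6% and held the 6-mer GAGAGA, which 22.8% of IDR windows hold. A stronger peak stood past the 3' end of *sys-1*, with a signal of 230.4 and rank 240, and ranks 238 and 243 in replicates 1 and 2. It was at -247 bp from the 5' end of *eif-3.C*, a gene of translation initiation factor 3 that follows on the same strand, and outside the window of *sys-1*.

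The other beta-catenin genes had little. In the window of *hmp-2* (WBGene00001979, chromosome I, 14738882 to 14742671, plus strand), whose product binds cadherin at adherens junctions, the pooled list had a summit at -157 bp from an internal 5' end, in an intron, with a signal of 7.42 and rank 25363. Replicate 1 had an overlapping peak at rank 8117, and replicate 2 had none. An IDR peak of rank 792, with a signal of 77.1, lay at -1392 bp from *hmp-2* and at -212 bp from K05C4.7. That gene lies on the same strand and ends 85 bp before *hmp-2*. Neighbouring genes of the worm can form operons that share a promoter, and whether these do was not tested.

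At *bar-1* (WBGene00000238, chromosome X, 7166005 to 7170625, minus strand), the beta-catenin gene known for vulval fate and neuroblast migration, the pooled list had a summit at -864 bp with a signal of 7.63 and rank 24411. Replicate 2 had an overlapping peak at rank 15135, and replicate 1 had none in the promoter window or in the gene. The nearest IDR summit was at -11166 bp. At both *hmp-2* and *bar-1* the promoter peak was thus in the low ranks of the pooled list and was matched in 1 replicate.

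Within 50 bp of the summits of the set, no window held CTTTGAT, the core bound by TCF proteins, or TATAAA, on either strand. The windows searched were the 6 IDR summits and the *wrm-1* summit, each 101 bp. The longer *mig-5* sequence printed above, of 299 bp, holds TATAAA near its end, outside the 101 bp searched. Over all IDR windows 0.745% held the first and 4.75% the second, so few matches would be found at any 7 windows. GAGAGA was in the windows of *sys-1* and *pop-1*, and in 22.8% of all. A match is a run of letters and not a shown site.

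The rest of the Wnt pathway was read from a list of 44 genes by role, of which 43 were found under their symbol. The gene not found was *imb-4*, listed for export of POP-1, and it was not analysed here. Of the 43 found, 7 (16.3%) had an IDR promoter summit, beside 12.6% of all protein-coding genes. Inside the gene, 4 (9.30%) had an IDR summit, beside 2.79% of all, a share not matched for gene length. No IDR promoter summit was found at the 5 ligand genes, the 6 receptor genes or the 3 polarity genes. The same held for the 2 genes of the MAP kinase branch and the 3 cadherin complex genes. Some genes of these roles had a weaker pooled-list summit in the promoter window. Of the 4 genes listed as partners or for export of POP-1, the 3 found in the annotation had an IDR promoter summit. Highest was *cbp-1*, the CBP/p300 acetyltransferase gene, at rank 40 with a signal of 1451, and at ranks 38 and 45 in replicates 1 and 2. Its summit was at -903 bp, and a further one of rank 816 lay at -149 bp. The 14-3-3 gene *par-5*, whose product takes part in POP-1 export, had summits of ranks 1563 and 1860 at -755 and -155 bp. The Groucho gene *unc-37*, a corepressor of POP-1, had a summit of rank 1996 at -215 bp.

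For ligand secretion 2 of 6 genes had a promoter summit. These were *snx-3*, a sorting nexin gene, at rank 210, with ranks 200 and 218 in replicates 1 and 2, and the Porcupine gene *mom-1* at rank 1118, with ranks 2000 and 817. The first shares its summit with *rad-54.L* and the second with *lev-9*. Of the 6 genes of the beta-catenin destruction machinery, *lin-23*, which encodes an F-box protein, had a summit of rank 919 at -938 bp. Among 9 known or proposed targets of the pathway the Hox gene *lin-39* had a promoter summit of rank 1817 at -122 bp, which also lay inside the gene. The targets *mab-5*, with ranks 324 and 1866, and *egl-18*, with rank 782, had IDR summits inside the gene, as did *mom-1* with rank 303. Ranks of these promoter peaks ran from 40 to 1996, and none was as high as that of *mig-5*.

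**Figure D4:**
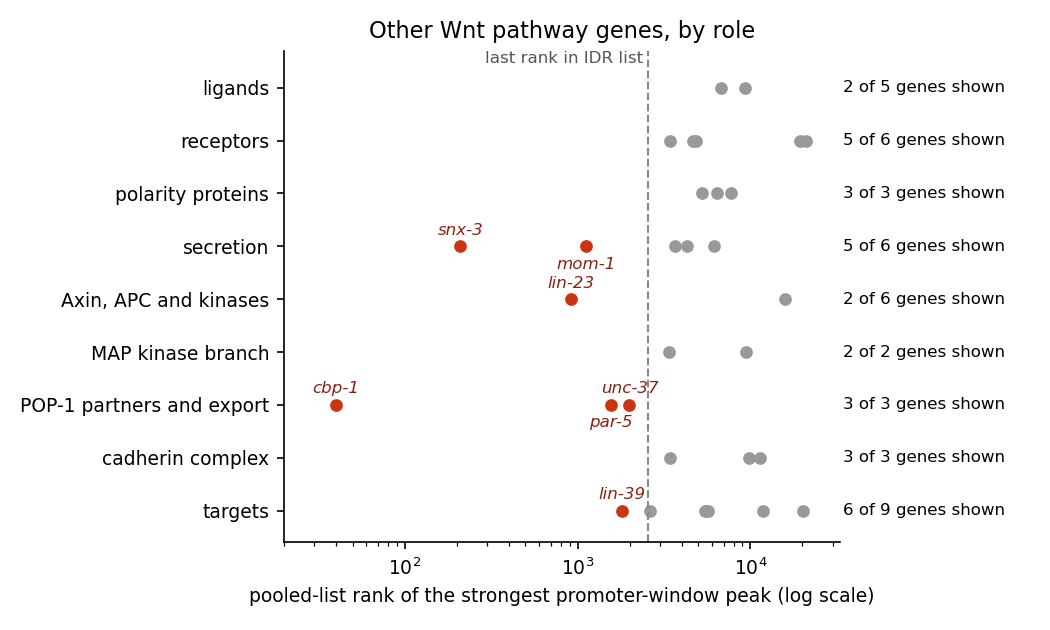
Pooled-list rank, on a log axis, of the strongest promoter-window peak of each of the other Wnt pathway genes, by role. Red points, named, are in the IDR list, left of the dashed line where that list ends, and grey points are below it. The text at the right gives how many genes of the role have any pooled-list peak in the window. The 3 genes shown for partners and export of POP-1 are red, and *imb-4*, listed in that role, was not found and is not shown.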

How the data were processed

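The data were ChIP-seq peak lists for eGFP-tagged LSY-2 in 2 biological replicates, which formed 1 group with no control group. Per the metadata deposited with the samples, the lists hold peaks and background per replicate and pooled, and a list thresholded on IDR. Not given in the sources used here were the aligner, the caller of the peaks and their versions, and the IDR cutoff. The deposited signal value of a peak is on a scale set by the authors within each list, and the deposited −log10 q-value was only described. The ce10 lists were not used.

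Ranks, promoter windows and matches between lists (overlap of at least 1 bp, the highest of several) were computed with Python 3.11.15, numpy 2.4.6 and pandas 2.3.3, and plotted with matplotlib 3.10.9. Genes came from Ensembl release 115 and sequences from RefSeq, both on WBcel235, and no ce11 peak passed a chromosome end. Assignment was checked on planted summits. Operons were not treated separately. Members, lists and windows were chosen with earlier results of these data known. Named genes were the 9 members, genes that share their summits, listed Wnt genes with an IDR promoter summit and the peaks next in signal; other genes named beside a peak, and words shared by windows, were added after values were seen. Alternatives were other peak sets, positions, windows, 5' ends and matches, and each replicate alone.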

Additional observations from a re-analysis of the deposited data

How the results depend on the processing

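The number of members with a promoter summit was 4 with peak midpoints. These nearly coincide with the summits of the members' IDR peaks, so that setting could change little. The number was also 4 with a shorter window (500 bp before to 100 bp past a 5' end) and with either replicate alone. It was 3 with the IDR peaks above the median signal (without *dsh-2*) or the outermost 5' end only (without *lit-1*). A longer window (2000 bp before to 500 bp past a 5' end) gave 6 and added *hmp-2* and *pop-1*. Over all genes the share ran from 7.35% with those peaks to 15.9% with the longer window. Without replicate 1 the 4 were those of the IDR list, and without replicate 2 *wrm-1* took the place of *dsh-2*. The number with a summit inside the gene was 2, 1 with those peaks (*lit-1*), and 2 without either replicate. Other Wnt genes with a promoter summit numbered 7, 4 with those peaks, 11 with the longer window, 10 without replicate 1 and 6 without replicate 2. Of the 5 members with a weaker pooled-list peak only *wrm-1*, 1 gene, was left among the 10000 highest peaks, and either replicate alone gave 4. Of 18 alternative ranks of the members' IDR peaks, 3 moved by more than the SD between replicates: *sys-1* (958, 1313 in replicate 1), *lit-1* (1703, 3245 in replicate 1) and *pop-1* (1924, 2492 in replicate 2). The causes of these moves were not tested. That SD comes from the same replicate ranks, so it is wider where the replicates differ more and is no independent measure. The *dsh-2* rank (2046, 2621 in replicate 1) stayed within its SD of 597.5. Matching by summit distance found the same replicate peaks, so those alternatives repeated the main ranks. No paired analysis was possible because all samples form 1 group. Depth is unknown, so no limit on undetected binding is given.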

Other observations

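The peaks next in signal to the members' promoter peaks are named by the nearest annotated 5' end, which can lie outside the promoter window, as at *vig-1* (2419 bp), *ddx-19* (4005 bp) and *hmg-20* (835 bp). The *mig-5* peak stood between peaks nearest *nra-2*, with a signal of 2487, and *cap-2*, an actin capping protein gene, with a signal of 2351. The *sys-1* peak stood between peaks nearest *ddx-19* and *hmg-20*, the *lit-1* peaks between *exoc-7* and *ivph-3* and between *nucl-1* and *polk-1*, and the *dsh-2* peak between *vig-1* and *cpn-3*. At the lower end these steps were small: the *dsh-2* peak, of signal 40.48, stood between peaks of 40.49 and 40.45.

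Words shared by the windows of the set were looked for after the sequences were seen, in 10 pairs of the 5 windows printed, on both strands and within 50 bp of the summit. The longest word, CCCAACACCA, was in the *mig-5* window and in the *lit-1* window of rank 1703, and in 2 of the 2550 IDR windows in all, which are these same windows. The *mig-5* and *dsh-2* windows shared AACATTGT, on opposite strands, which 13 IDR windows (0.51%) held. No word shared by a pair was tested.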
